A study of Mus musculus with 8 samples.

Results

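The basement membrane genes are a set of 10 structural genes, *Col4a1*, *Col4a2*, *Lama3*, *Lama5*, *Lamb1*, *Lamc1*, *Nid1*, *Nid2*, *Hspg2* and *Col18a1*, found by gene symbol among the 24940 genes of the deposited count table. They were read in liver RNA-seq of 4 FXRKO and 4 BCL6LKOFXRKO male mice of the C57BL/6 strain. FXRKO mice were homozygous for the whole-body loss of *Fxr* and carried floxed *Bcl6* without Cre. BCL6LKOFXRKO mice had the same *Fxr* and floxed *Bcl6* alleles plus Alb-Cre, in which the albumin promoter drives Cre in hepatocytes. Both groups therefore lacked *Fxr*, and the presence of Cre cannot be told apart from the loss of *Bcl6*. The age and feeding state of the mice are not given in the labels, and livers with intact *Fxr* were not analysed here.

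Basement membranes are thin sheets of matrix under epithelia and around vessels, muscle and fat cells. Laminin trimers of an alpha, a beta and a gamma chain bind cells and assemble into a first network, collagen IV forms a second, covalently linked network, and nidogens and heparan sulfate proteoglycans join them. In liver, bile ducts and larger vessels rest on a continuous basement membrane, whereas the sinusoids that hepatocytes face have only a loose matrix.

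Totals on genes ranged from 7586241 to 11839503 counts per liver. A count of 3 corresponded to between 0.272 and 0.375 CPM (library-scaled counts, with TMM factors), which covers counting error only. *Bcl6*, the deleted gene, was at 56.3, 65.2, 21.2 and 55.6 CPM in FXRKO livers 1 to 4 and at 11.9, 4.61, 5.55 and 7.72 CPM in BCL6LKOFXRKO livers 5 to 8, a log2 fold change of -2.72 ± 0.40 (SE, edgeR adjusted p = 0.00123). All FXRKO livers were above all BCL6LKOFXRKO livers, with FXRKO liver 3 the lowest of its group. *Nr1h4*, the gene of FXR, was still counted, at 56.7 to 62.6 CPM in FXRKO and 39.4 to 48.1 CPM in BCL6LKOFXRKO livers. Its log2 fold change was -0.46 ± 0.10 (SE, edgeR adjusted p = 0.00497), and the groups did not overlap. No liver of another *Fxr* genotype was analysed to set beside these counts. The labels name separate libraries and no litters or batches, so p-values measure the spread between these livers.

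All 10 genes passed the expression filter. In BCL6LKOFXRKO livers 7 of them were higher than in FXRKO livers, *Lama3* was lower, and *Nid2* and *Col18a1* did not pass the test (edgeR's quasi-likelihood test, adjusted p under 0.05). Over all 12340 tested genes, 16.2% were called higher and 13.5% lower. The median log2 fold change was 0.83 over the 10 genes and 0.01 over all tested genes. With total counts alone as the scaling, which moved all genes by a median of -0.16 on the log2 scale, 7 were still called higher and 1 lower. The CPM of the genotypes did not overlap for 7 of the 10 genes, against 31.3% of all tested genes. Because the tissue was bulk liver, more cells of a type and more RNA per cell cannot be told apart.

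**Figure D1:**
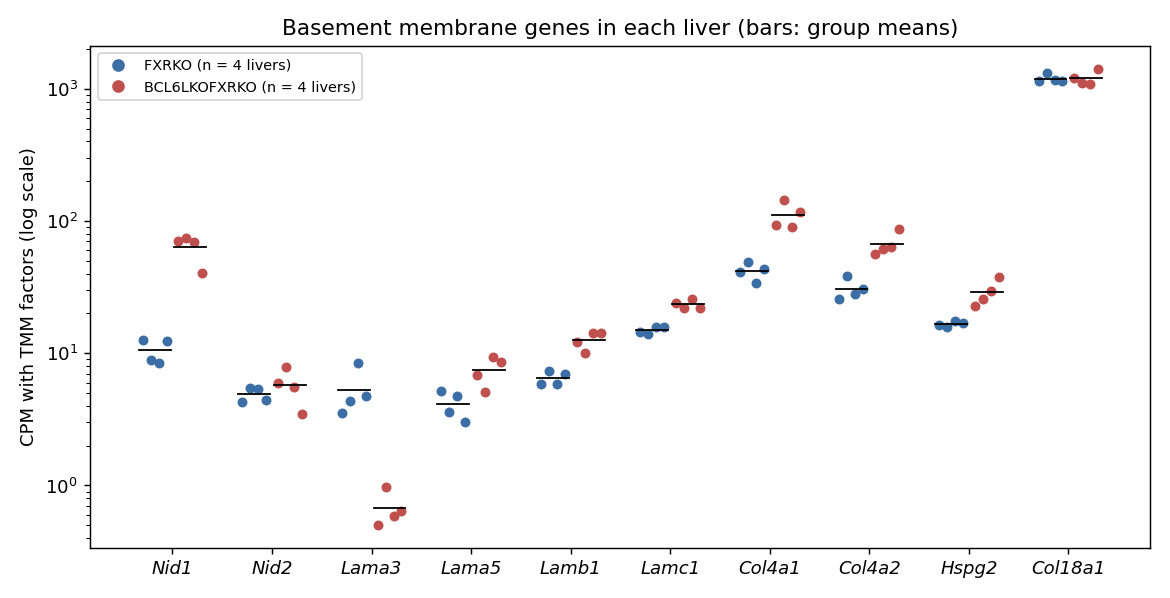
CPM (log axis) of the 10 basement membrane genes in each liver, with FXRKO in blue, BCL6LKOFXRKO in red and black bars at the group means. *Nid1* stands at 8.38 to 12.6 CPM in FXRKO and 40.2 to 73.9 CPM in BCL6LKOFXRKO livers, *Lama3* goes the other way, and the *Col18a1* points of the groups intermingle.

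Collagen IV was higher in BCL6LKOFXRKO livers in both of its widely expressed chains. *Col4a1* (NM_009931, mm10 chr8:11198423-11312826, minus strand) was at 41.3, 49.1, 33.7 and 43.7 CPM in FXRKO livers and at 93.2, 145, 89.6 and 118 CPM in BCL6LKOFXRKO livers. *Col4a2* (NM_009932, chr8:11312805-11449287, plus strand) was at 25.5, 38.1, 28.2 and 30.8 CPM and at 56.4, 61.5, 64.0 and 86.6 CPM. Every BCL6LKOFXRKO liver was above every FXRKO liver for both genes. The mean of *Col4a1* went from 42.0 ± 6.38 to 111 ± 25.6 CPM (SD, n = 4), a log2 fold change of 1.41 ± 0.17 (SE, edgeR adjusted p = 4.45e-05). That of *Col4a2* went from 30.7 ± 5.43 to 67.1 ± 13.4 CPM (SD, n = 4), a log2 fold change of 1.13 ± 0.16 (SE, edgeR adjusted p = 0.000183). The genes lie head to head and share 22 exonic bases on opposite strands. The count ratio of *Col4a1* to *Col4a2* in a liver was 1.20 to 1.62 in FXRKO and 1.36 to 2.35 in BCL6LKOFXRKO livers, a difference of 0.27 on the log2 scale that was not larger than the spread between livers (exact two-sided permutation test, p = 0.26, adjusted p = 0.32 over 10 ratios).

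*Nid1*, which encodes the linker that binds laminin γ1 and collagen IV, had the largest rise of the 10 genes. *Nid1* (NM_010917, chr13:13437602-13512275, plus strand) was at 12.6, 8.87, 8.38 and 12.3 CPM in FXRKO livers and at 70.001, 73.9, 69.8 and 40.2 CPM in BCL6LKOFXRKO livers. The lowest BCL6LKOFXRKO liver, liver 8, was still far above the highest FXRKO liver. The mean went from 10.5 ± 2.22 to 63.5 ± 15.6 CPM (SD, n = 4), 6.03-fold, with a log2 fold change of 2.58 ± 0.21 (SE, edgeR adjusted p = 2.15e-06). An antisense gene shares 143 bases, 2.06% of the exonic bases of *Nid1*.

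The other nidogen, *Nid2* (NM_008695, chr14:19751257-19811787, plus strand), did not pass the test. It was at 4.27, 5.50, 5.37 and 4.45 CPM in FXRKO and at 5.94, 7.89, 5.55 and 3.45 CPM in BCL6LKOFXRKO livers, and liver 8 was the lowest of all. The log2 fold change of 0.21 had a 95% interval from -0.31 to 0.73 (adjusted p = 0.54 from edgeR). Of its exonic bases, 8.45% overlap *Rtraf* on the opposite strand, a gene at 52.8 ± 2.56 and 51.4 ± 3.87 CPM (SD, n = 4), and the stated counting options name no strand, so reads on the shared bases cannot be told apart. The count ratio of *Nid1* to *Nid2* was 1.56 to 2.95 in FXRKO and 9.37 to 12.6 in BCL6LKOFXRKO livers, a log2 difference of 2.40. The groups did not overlap. By an exact permutation test (two-sided) p was 0.029, which 4 against 4 livers cannot go below, and 0.057 after adjustment over the 10 ratios.

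Among the laminin chains, *Lama3* fell, whereas *Lama5*, *Lamb1* and *Lamc1* rose. *Lama3* (NM_010680, chr18:12334024-12583012, plus strand), which encodes the α3 chain of epithelial adhesion laminins, had 34, 35, 78 and 50 counts in FXRKO livers and 5, 8, 6 and 7 counts in BCL6LKOFXRKO livers. In CPM these were 3.54, 4.37, 8.38 and 4.73 against 0.504, 0.971, 0.584 and 0.636. Every BCL6LKOFXRKO liver was below every FXRKO liver, and FXRKO liver 3 was the highest. The mean was 7.80-fold lower, from 5.26 ± 2.14 to 0.674 ± 0.205 CPM (SD, n = 4), with a log2 fold change of -2.96 ± 0.35 (SE, edgeR adjusted p = 4.87e-05). The gene passed the expression filter through the FXRKO livers, and it was the only member with fewer than 10 counts in some liver.

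*Lamb1* (NM_008482, chr12:31265294-31329639, plus strand), the gene of the β1 chain, was at 5.83, 7.37, 5.80 and 6.91 CPM in FXRKO and at 12.1, 10.1, 14.1 and 14.3 CPM in BCL6LKOFXRKO livers. *Lamc1* (NM_010683, chr1:153218922-153332786, minus strand), the gene of the γ1 chain found in most laminins, was at 14.4, 14.0, 15.8 and 15.7 CPM and at 23.9, 21.8, 25.8 and 22.2 CPM. Neither gene had overlapping groups. Their log2 fold changes were 0.97 ± 0.17 (SE, adjusted p = 0.00088) and 0.65 ± 0.12 (SE, adjusted p = 0.00149), both from edgeR.

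*Lama5* (NM_001081171, chr2:180176373-180225859, minus strand), the gene of the broadly expressed α5 chain, was at 5.20, 3.62, 4.73 and 3.03 CPM in FXRKO and at 6.85, 5.10, 9.35 and 8.54 CPM in BCL6LKOFXRKO livers. BCL6LKOFXRKO liver 6 was just below FXRKO liver 1, so the groups overlapped. The log2 fold change of 0.85 (standard error 0.24) passed the test at an adjusted p of 0.0165 from edgeR, but not without FXRKO liver 4, where it was 0.72 with an adjusted p of 0.0530.

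Levels were next compared per length, as RPKM, among the 5 laminin alpha genes. *Lama3* made up 24.8%, 26.5%, 42.0% and 28.2% of their summed RPKM in FXRKO livers and 2.81%, 4.88%, 2.30% and 2.98% in BCL6LKOFXRKO livers. The mean share went from 30.4 ± 7.90% to 3.24 ± 1.13% (SD, n = 4, exact two-sided permutation test, p = 0.029). The share of *Lama5* was 22.7 ± 7.22% and 31.9 ± 5.90% (SD, n = 4, exact permutation p = 0.057), and those of *Lama4* and *Lama2* also had higher means in BCL6LKOFXRKO livers without passing the test. Shares sum to 100%, so they do not move independently. Summed over all alpha genes the level was 1.64 ± 0.227 RPKM in FXRKO and 2.06 ± 0.311 RPKM in BCL6LKOFXRKO livers (SD, n = 4, exact permutation p = 0.086). The summed beta genes went from 2.93 to 5.0009 RPKM and the summed gamma genes from 2.35 to 4.64 RPKM. Neither sum had overlapping groups (n = 4, exact permutation p = 0.029 for each).

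**Figure D2:**
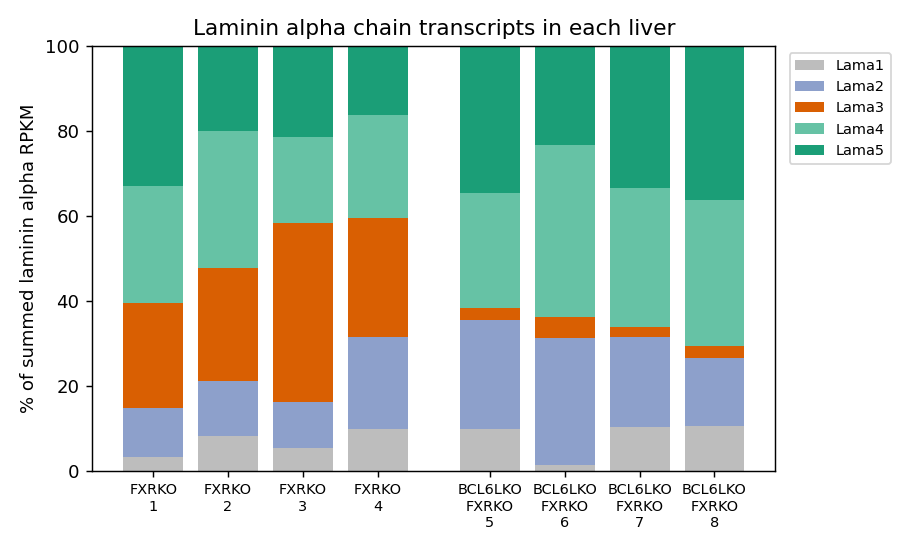
Share of each laminin alpha gene in their summed RPKM (percent, y axis) in FXRKO livers 1 to 4 and BCL6LKOFXRKO livers 5 to 8. The orange segment, *Lama3*, spans 24.8% to 42.0% in FXRKO livers and 2.30% to 4.88% in BCL6LKOFXRKO livers.

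Of the heparan sulfate proteoglycan genes, *Hspg2* rose and *Col18a1* was not called. *Hspg2* (NM_008305, chr4:137468803-137570630, plus strand), the gene of perlecan, was at 16.3, 15.7, 17.5 and 17.0 CPM in FXRKO and at 22.8, 25.8, 29.8 and 37.9 CPM in BCL6LKOFXRKO livers. The FXRKO livers lay close together and all were below the BCL6LKOFXRKO livers, which spread more widely. The log2 fold change was 0.80 ± 0.16 (SE, edgeR adjusted p = 0.00186).

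*Col18a1* (NM_001109991, chr10:77052179-77113705, minus strand), the gene of collagen XVIII, from which endostatin is cut, was at 1147, 1307, 1167 and 1143 CPM in FXRKO and at 1213, 1108, 1090 and 1418 CPM in BCL6LKOFXRKO livers. The groups overlapped throughout. The log2 fold change of 0.02 had a 95% interval from -0.25 to 0.29 (adjusted p = 0.92 from edgeR). Per length it was by far the most abundant of the 10, at 213 ± 14.0 and 216 ± 27.0 RPKM (SD, n = 4). It made up 91.8 ± 0.408% of the summed RPKM of the 10 genes in FXRKO and 81.9 ± 2.30% in BCL6LKOFXRKO livers (SD, n = 4). The other 9 genes together were at 17.6 to 21.0 RPKM in FXRKO and 43.4 to 52.6 RPKM in BCL6LKOFXRKO livers, 2.47-fold higher by their means.

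In the order of RPKM, *Col4a1* (6.40 RPKM) and *Col4a2* (4.79 RPKM) followed *Col18a1* in FXRKO livers and overlapped each other, and *Nid1* (1.75 RPKM) came after *Lamc1* (1.97 RPKM), which it overlapped. In BCL6LKOFXRKO livers *Nid1* (10.5 RPKM) stood beside *Col4a2* (10.5 RPKM), which it overlapped, below *Col4a1* (17.0 RPKM). *Lama3* moved from above *Lama5* by mean (0.512 against 0.367 RPKM, overlapping) to the lowest of the 10 (0.0656 against 0.660 RPKM, not overlapping).

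**Figure D3:**
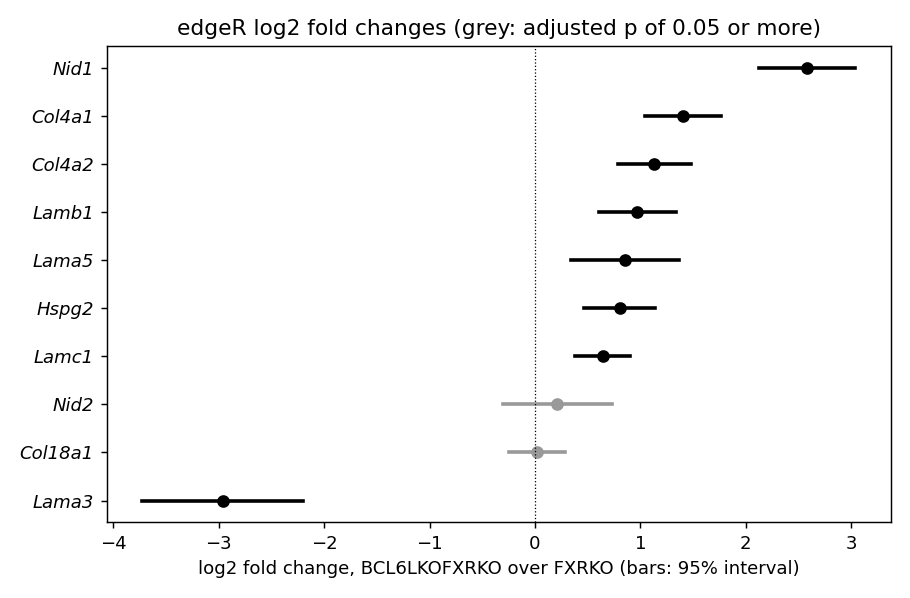
edgeR log2 fold changes of BCL6LKOFXRKO over FXRKO livers (x axis) with 95% intervals, 4 livers per group, in black where the adjusted p was under 0.05. They range from -2.96 for *Lama3* to 2.58 for *Nid1*, and the grey intervals of *Nid2* and *Col18a1* cross 0.

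Ratios of counts within a liver do not depend on library scaling. Of the 10 ratios compared, 5 reached the smallest possible exact permutation p of 0.029, and none had an adjusted p under 0.05, which was 0.057 for these 5. Against *Lamc1*, the log2 ratio of *Nid1* was higher by 1.93 and that of *Lama3* lower, with a difference of -3.48, in BCL6LKOFXRKO livers. The ratio of *Lama3* to *Lama5* was 0.680 to 1.77 in FXRKO and 0.0625 to 0.190 in BCL6LKOFXRKO livers, and that of *Col18a1* to *Hspg2* was 66.6 to 83.0 and 36.6 to 53.3. The ratios of *Lama5*, *Lamb1*, *Hspg2* and *Col4a1* to *Lamc1* differed by 0.19, 0.31, 0.13 and 0.75 on the log2 scale, and their exact permutation p-values were 0.51, 0.086, 0.60 and 0.057.

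**Figure D4:**
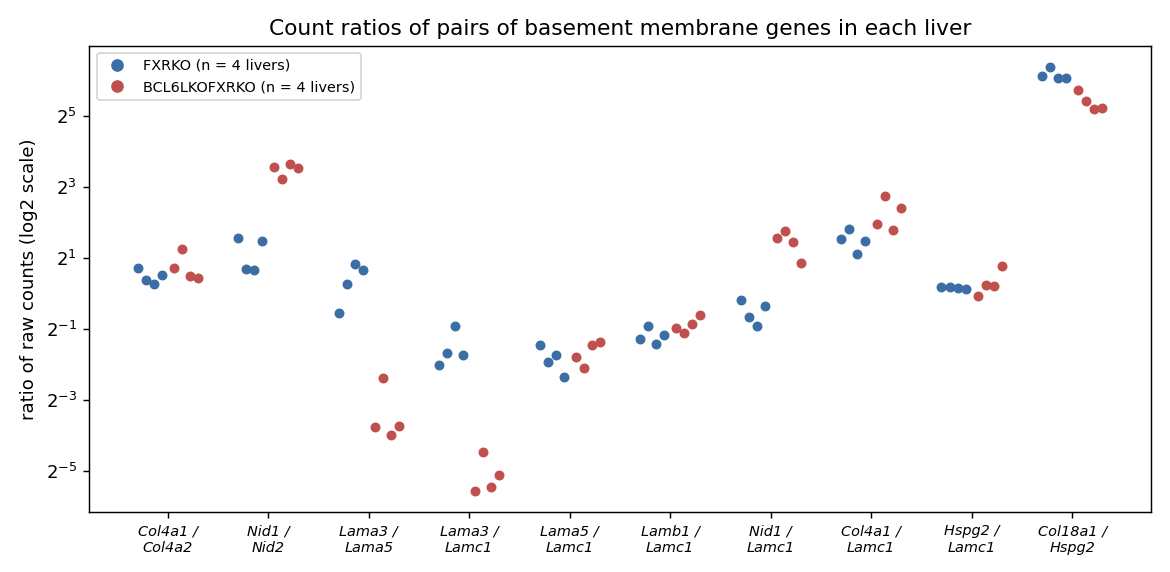
Ratio of raw counts of pairs of basement membrane genes (log2 axis) in each of 4 FXRKO (blue) and 4 BCL6LKOFXRKO (red) livers. *Nid1* to *Nid2* separates at 1.56 to 2.95 against 9.37 to 12.6, whereas *Lama5* to *Lamc1* overlaps.

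Upstream sequence was taken from RefSeq (GRCm38.p6, the assembly of mm10) for the members it lists. Of the 10 genes 7 had an entry, with 8 windows of 250 bases before a start site, of which 2 belong to *Col18a1*, a gene that was not called, and *Nid2*, *Lamc1* and *Lama3* had none. The GC box GGGCGG, searched on both strands, was in 6 of the 8 windows, among them the *Col18a1* window that does not precede the counted transcript, and in 32.7% of all 32851 windows. All 250 bases of the *Col4a1* and *Col4a2* windows are in annotated exons, as are 241 of the *Col18a1* window before the counted transcript. The spaced palindrome TTCNNNGAA, a core that BCL6 and STAT sites share, was in 0 of the 8 windows and in 7.02% of all windows. Stretches of 3 genes that rose are shown, *Nid1* (chr13:13437352-13437550, plus strand), *Hspg2* (chr4:137468553-137468768, plus strand) and *Lama5* (chr2:180225860-180226109, minus strand), with GC boxes of either strand in capitals. The *Nid1* and *Hspg2* windows hold 51 and 34 bases in annotated exons and were cut before the first of them. *Lamb1* also rose, and its window, with 59 bases in annotated exons, is not shown.
Nid1: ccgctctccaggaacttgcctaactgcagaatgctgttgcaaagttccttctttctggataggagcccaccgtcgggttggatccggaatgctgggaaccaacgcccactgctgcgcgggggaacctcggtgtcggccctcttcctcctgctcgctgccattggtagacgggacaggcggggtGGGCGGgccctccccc
Hspg2: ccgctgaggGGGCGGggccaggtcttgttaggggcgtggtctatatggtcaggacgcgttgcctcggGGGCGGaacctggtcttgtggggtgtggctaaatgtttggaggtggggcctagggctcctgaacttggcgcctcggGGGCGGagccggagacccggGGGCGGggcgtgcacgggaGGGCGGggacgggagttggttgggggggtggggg
Lama5: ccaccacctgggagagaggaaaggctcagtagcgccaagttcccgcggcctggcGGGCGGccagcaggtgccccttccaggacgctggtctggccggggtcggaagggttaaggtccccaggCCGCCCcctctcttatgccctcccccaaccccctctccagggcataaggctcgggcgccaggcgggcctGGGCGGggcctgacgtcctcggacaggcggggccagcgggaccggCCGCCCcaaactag
The *Nid1* stretch holds 1 GC box, that of *Hspg2* holds 5 and that of *Lama5* holds 4.

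Other chains of the same networks were mostly higher or not called, where 16.2% of all tested genes were called higher and 13.5% lower. Of 7 tested laminin and collagen IV genes outside the set, 4 rose and 0 fell, with a median log2 fold change of 0.72. *Lamc3*, a gamma chain gene, rose by 2.43 (standard error 0.38, adjusted p = 0.000463), *Lama2* by 0.99 and *Lamb2* by 0.68 (edgeR). *Col4a3*, *Col4a4* and *Col4a6* were too low to test. Of 12 tested further basement membrane components, 8 rose and 1 fell (median 0.45). *Smoc2*, a matricellular calcium-binding protein gene, rose by 1.09, *Ntn1* (netrin 1) by 0.87 and *Tinagl1* by 0.52, and *Fras1*, an epithelial basement membrane gene, had a log2 fold change of -1.08 (edgeR adjusted p = 0.00705).

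Of 13 tested receptor genes, 6 rose and 2 fell (median 0.44), against 16.2% and 13.5% of all tested genes. *Sdc1*, the syndecan of epithelial cells, went from 221 to 589 CPM by means, a log2 fold change of 1.41 ± 0.13 (SE, edgeR adjusted p = 3.92e-06). *Ddr1*, a collagen receptor kinase, rose by 3.19 and *Itga6*, a laminin-binding integrin chain, by 3.17. In FXRKO livers *Itga6* had 15, 13, 3 and 19 counts, and it passed the expression filter through the BCL6LKOFXRKO livers. Its low counts limit the precision of its fold. In contrast, *Itgb1*, the shared integrin β1 chain, had a log2 fold change of -0.37 and *Sdc4* of -0.42.

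Enzymes that build and remodel the matrix were read from 3 lists, beside 16.2% of all tested genes called higher and 13.5% lower. Of 14 tested collagen assembly genes, 4 rose and 1 fell (median 0.27). The log2 fold changes were 0.83 for *Crtap* and 0.88 for *P3h3*, both of prolyl 3-hydroxylation, 0.63 for the collagen IV crosslinking enzyme gene *Pxdn*, and -1.03 for the prolyl hydroxylase gene *P4ha2*. Of 15 tested heparan sulfate synthesis genes only *Glce* was called, at 0.76 (adjusted p = 0.0263 from edgeR), and the median was 0.11. Of 10 tested turnover genes, 8 rose and 1 fell (median 0.98). *Mmp14*, a membrane-bound matrix metalloproteinase gene, rose by 1.13, the protease inhibitor gene *Timp2* by 0.79 and the cathepsin gene *Ctsb* by 0.70, and the procollagen protease gene *Bmp1* had a log2 fold change of -0.59.

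Over these 6 lists 31 of 71 tested genes rose and 5 fell, against 16.2% and 13.5% of all tested genes. With total counts alone 17 rose and 11 fell, and over all tested genes 11.4% were then called higher and 23.9% lower. Of the genes named in these lists and among the cell type markers below, *Lama2*, *Tinagl1*, *Itgb1*, *Sdc4*, *Pxdn*, *Glce*, *Cd34*, *Ccr2*, *Ahsg* and *Apob*, 10 in all, lost their call when some single liver was left out.

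Markers of other liver cell types were read against the same background, 16.2% called higher and 13.5% lower over all tested genes. Of 10 stellate cell markers 9 were higher, and their summed level was 236 to 338 CPM in FXRKO and 500.2 to 589 CPM in BCL6LKOFXRKO livers, with *Rgs5* at a log2 fold change of 1.09, *Pdgfrb* at 1.06 and *Dcn* at 1.05. Of 8 vascular endothelial markers 4 were higher (87.3 to 120.0 against 136 to 180.1 CPM), with *Vwf* at 1.60, *Cd34* at 1.03 and *Plvap* at 0.70. The other 4 were not called, with *Tie1* at 0.36, *Emcn* at 0.29, *Pecam1* at 0.20 and *Cdh5* at -0.06. Of 9 sinusoidal endothelial markers only *Stab2* was called, at 0.63, and the summed level overlapped (224 to 302 against 279 to 382 CPM).

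Of 7 tested cholangiocyte markers 4 were higher (61.0 to 89.3 against 119 to 228 CPM), with *Prom1* at 4.99, *Bicc1* at 1.04 and *Spp1* at 1.004. Among 7 tested portal fibroblast markers *Thy1* (1.41) and *Dpt* (1.38) were called (19.5 to 25.4 against 30.6 to 59.2 CPM). Among 3 tested smooth muscle markers *Myh11* (1.11) and *Tagln* (0.82) were called (21.9 to 33.3 against 35.6 to 68.3 CPM). Summed levels run over every listed marker in the count table, tested or not: 10 cholangiocyte, 8 portal fibroblast and 5 smooth muscle markers. Of 8 macrophage markers *Ccr2* (1.20) and *Cd68* (0.93) were higher and the other 6 were not called, and the summed level overlapped (249 to 322 against 302 to 494 CPM). No marker was at 0 in all livers. *Prom1* (11, 13, 5 and 6), *Thy1* (9, 11, 9 and 9) and *Ccr2* (18, 6, 5 and 13) had few counts in FXRKO livers. These genes passed the expression filter through the BCL6LKOFXRKO livers, and the low counts limit the precision of their folds.

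Of 7 hepatocyte markers 2 were higher and 3 lower, with *Alb* at 1.60, *Ahsg* at 0.51, *Apob* at -0.45, *Ttr* at -0.76 and *Serpina1c* at -1.54, and their summed level, mostly *Alb*, was 65421 to 76834 CPM in FXRKO and 156234 to 177549 CPM in BCL6LKOFXRKO livers. The part of these marker changes in the levels of the basement membrane genes was not tested.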

How the data were processed

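Liver RNA of 4 FXRKO and 4 BCL6LKOFXRKO males was sequenced from a stranded kit. Per the labels and the submitters' processing notes, the authors used STAR 2.5.2, HOMER 4.10 and mm10, and deposited raw counts on exons per gene, with 1 transcript per gene. The stated counting options name no strand, so counts of overlapping genes are uncertain.

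The comparison was fitted with edgeR 4.0.16 under R 4.3.3 (filterByExpr, TMM, robust quasi-likelihood test, Benjamini-Hochberg over 12340 genes), with calls made at adjusted p under 0.05. CPM use TMM factors, and RPKM divide them by transcript length. Ratios used a pseudocount of 0.5 and an exact two-sided permutation test over 70 orderings of the livers. Alternatives were DESeq2 1.42.0, limma 3.58.1 (voom), other scalings, filters and fold thresholds, and each liver left out. No liver pair of a genotype agreed within sampling noise (chi-square per degree of freedom 10.7 to 49.3).

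The members, lists and rules were chosen with earlier results of these data known. The text names all members and, in each other list, up to 3 called genes per direction with the smallest adjusted p. *Rtraf* and the remaining laminin alpha genes were named after their values were seen. One gene of these lists is not reported here, and 2 others were not analysed here.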

Additional observations from a re-analysis of the deposited data

Results flagged for a closer look

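A single liver stood apart from the other 3 of its genotype in 3 of 40 groups checked by Dixon's test, where chance gives about 2. *Nid1* in BCL6LKOFXRKO liver 8 was at 40.2 CPM against 69.8 to 73.9 CPM in livers 5 to 7, with a gap of 0.879 of the group's range. *Col18a1* in FXRKO liver 2 was at 1307 CPM against 1143 to 1167 CPM in the others (0.857 of the range). The log2 ratio of *Lama3* to *Lama5* in BCL6LKOFXRKO liver 6 was -2.32 against -3.64 to -3.89 in the others (0.839 of the range), on 8 counts of *Lama3*.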

How the results depend on the processing

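Of the fold changes of the 10 genes under the alternatives, 141 kept their direction and side of the threshold, 1 lost its call and 7 changed sign. All 7 were *Col18a1*, which was never called: -0.0407 with limma voom, -0.14 with total counts alone, -0.000602 without the 50 most counted genes, -0.00501 with no filter, and -0.0666 to 0.0671 with 1 liver left out (-0.00215 without liver 1, -0.00161 without liver 4, -0.0666 without liver 8). The lost call was *Lama5* without liver 4 (0.72, range 0.72 to 0.98), and 6 to 7 genes were called higher with 1 liver left out. With at least 10 counts in every liver 0 were called lower, since *Lama3* was filtered out. With an absolute log2 fold change above 1, 3 of the 10 genes were higher, and over all genes 874 were higher and 421 lower, against 1994 and 1665. Total counts alone moved the log2 fold change of all genes by a median of -0.16: the median of the 10 genes was 0.67, higher calls were 32.3% of all calls against 54.5%, 2949 genes were lower, and in the other lists 17 genes were higher and 11 lower against 31 and 5. With 1 liver left out these lists had 19 to 27 higher and 3 to 6 lower, the lowest without liver 3 (19 higher), liver 2 (20 and 3) and liver 4 (3 lower). The cause was not tested. With total counts alone *Pxdn*, *Glce*, *Ahsg*, *Ccr2* and *Tinagl1* lost their calls, and *Apob* did with at least 10 counts in every liver. *Ahsg* lost its call without liver 3, *Tinagl1* without liver 2, *Cd34* without liver 2 or 3, *Lama2* without liver 1, 2 or 3, *Pxdn* without liver 1, 3 or 7, *Itgb1* without liver 2, 4 or 5, *Sdc4* without liver 2, 4, 7 or 8, *Glce* without any of livers 1 and 3 to 7, *Ccr2* without any of livers 2 to 7 and *Apob* without any liver but 6 (highest adjusted p 0.114, edgeR).

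With 1 liver left out, the log2 ratio differences were 2.25 to 2.56 for *Nid1*/*Nid2*, -4.02 to -3.49 for *Lama3*/*Lama5*, -3.70 to -3.26 for *Lama3*/*Lamc1*, 1.80 to 2.11 for *Nid1*/*Lamc1*, 0.58 to 0.89 for *Col4a1*/*Lamc1*, -0.0279 to 0.25 for *Hspg2*/*Lamc1* (-0.0279 without liver 8) and -0.88 to -0.69 for *Col18a1*/*Hspg2*. Each of these 7 passed the adjusted threshold without liver 5 or 7 in at least 1 case (exact permutation, adjusted p = 0.0476). That value is set by how many of the 10 ratios tie at the smallest possible p, so passing it is not a stronger result. *Hspg2*/*Lamc1* passed only without liver 5, and with all livers its exact permutation p was 0.60. No paired analysis was possible because the labels number the libraries 1 to 8 without repeats and name no pairs. The titles also carry longer numbers, some of them consecutive across genotypes, whose meaning the labels do not give. The counts of *Lama3* in BCL6LKOFXRKO livers, 5 to 8, limit the precision of its fold.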
